A study of Apis mellifera with 27 samples.

Results

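The data were peak lists of histone H3 monomethylated at lysine 4 (H3K4me1) and trimethylated at the same residue (H3K4me3) from the brains of newly emerged worker honey bees (Apis mellifera). Chromatin immunoprecipitation sequencing (ChIP-seq) recovers the DNA bound to nucleosomes that carry a modification, and a peak is a stretch where that DNA was enriched over the local background. There were 2 libraries for each mark, which are 4 of the 27 samples of the series and 4 of the 24 with a peak list. The members were all peaks on the 16 placed chromosomes that overlapped a peak of the other replicate of the same mark. Overlapping peaks were merged, which left 6507 H3K4me1 and 5288 H3K4me3 regions.

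The libraries came from replicate pools of dissected brains, without optic lobes and, in workers, without the hypopharyngeal glands. Whether the marks of a replicate number shared a pool is not stated. Workers are largely sterile females, and the series holds the same marks from queens, which are reproductive females, and from drones, which are males. All bees came from a single mother queen and were collected at emergence, so the replicates do not sample other colonies or ages. No allele or agent was applied in any group. The marks were pulled down with different antibodies, so a difference between marks and a difference between antibodies cannot be told apart. A brain is a mixture of neurons and glia, and a peak does not tell in which of these cells the mark lay, nor whether overlapping peaks lay on the same chromosome copy.

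H3K4me3 is laid down where transcription begins and is known in animals as the mark of active gene starts. H3K4me1 is known from mammals and flies as a mark of enhancers, the sequences that raise transcription from a distance, and it is found at active and at silent enhancers alike. Acetylation of lysine 27 (H3K27ac) accompanies active starts and enhancers, and trimethylation of the same lysine (H3K27me3) is placed by Polycomb proteins on silent developmental genes. The last 2 marks, measured in the same kind of worker brain with 2 libraries each, served here to describe the H3K4 regions.

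The number of ChIP tags used in peak calling, recovered from the deposited folds and p-values with the shortest peak taken as fragment length, was 15.7 M (M for mega, as in Mb) and 15.98 M in the H3K4me1 libraries and 19.5 M and 15.3 M in the H3K4me3 libraries. These tags are those kept in calling and not the mapped reads, by which the study orders the H3K4me3 libraries differently. Every list ended at a −log10 q of about 2. Sequence outside the peaks had no call at this depth, and the mark may still be present there.

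H3K4me3 peaks were fewer, wider and far stronger than H3K4me1 peaks. H3K4me1 replicate 1 had 12331 peaks and replicate 2 had 13933, against 8668 and 6533 for H3K4me3. Both H3K4me1 libraries lay above both H3K4me3 libraries, a ratio of 1.74-fold (log2 0.80, pooled SD 0.22). The median peak was 264 and 258 bp wide for H3K4me1 and 343.5 and 351 bp wide for H3K4me3, a ratio of 0.752-fold (log2 −0.41, pooled SD 0.023). The groups did not overlap, and the tails differed more than the medians. Peaks over 1000 bp made up 0.122% and 0.129% of the H3K4me1 lists and 10.4% and 11.2% of the H3K4me3 lists. Fold enrichment, the height of a summit over its local background, had medians of 2.496 and 2.42 for H3K4me1 and 3.01 and 3.55 for H3K4me3. The highest fold was 8.49 and 8.79 for H3K4me1 and 26.4 in both H3K4me3 libraries. With only peaks of a fold above 3 the order of the numbers turned, to a log2 ratio of −0.21.

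With 2 libraries against 2, an exact two-sided permutation test cannot give a p below 0.333, and it gave 0.333 for each of the 7 measures tested between the marks in worker, which are all those given here with an SD other than replicate agreement. The queen and drone libraries were added for a test with more power, in which mark labels were exchanged within each caste over 12 libraries. In it the exact two-sided p was 0.00926, the smallest possible, for width and for number (adjusted over 8 measures with replicate agreement among them, 0.0123). H3K4me1 peaks were also narrower in queen (0.823-fold) and drone (0.715-fold), and more numerous (2.41-fold and 4.54-fold). The worker difference was also set against that of queen and drone together. For the 7 measures p was 0.0578 to 0.924 (exact permutation of caste labels within mark, two-sided, adjusted p of at least 0.249). The spread in this test includes the difference between queen and drone. It therefore cannot tell whether worker differed from either caste beyond the spread between replicates.

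**Figure D1:**
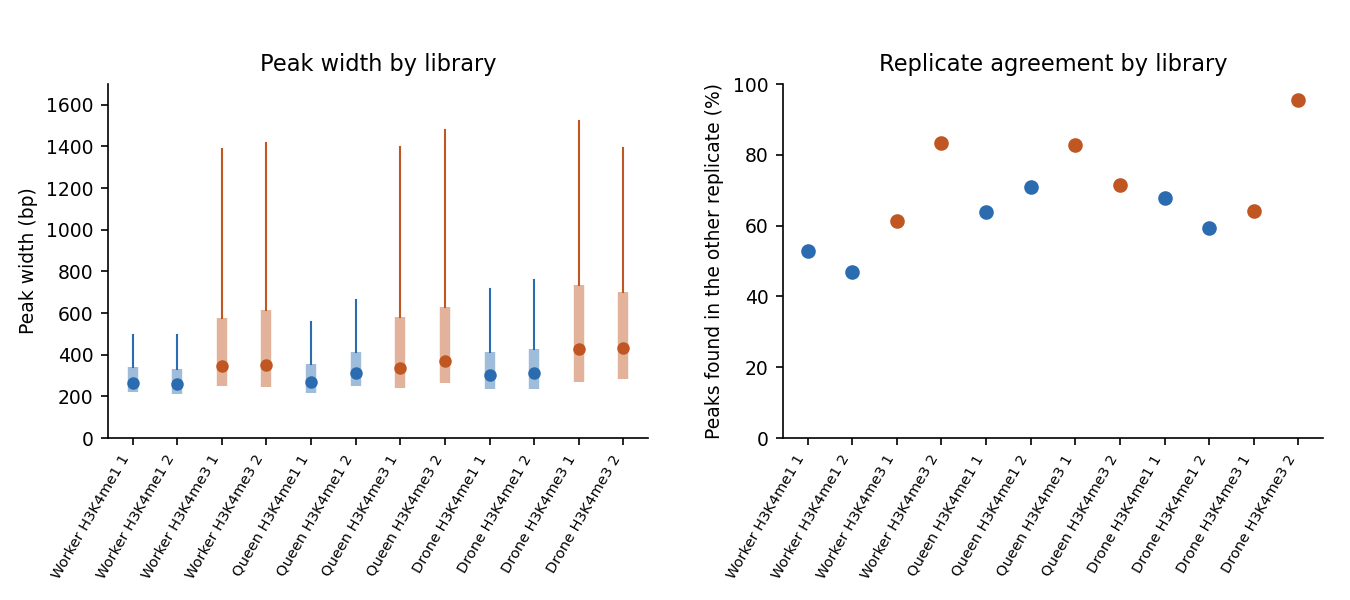
Left, width of the peaks of each library in bp, with a point at the median, a thick bar from the 25th to the 75th percentile and a thin line up to the 95th. Right, percentage of the peaks of each library that overlapped a peak of the other replicate. H3K4me1 is blue and H3K4me3 orange. The 95th percentile was 497 and 493 bp in the worker H3K4me1 libraries and 1389 and 1419 bp in the worker H3K4me3 libraries.

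H3K4me1 peaks were found again in the other replicate less often. Of the peaks of H3K4me1 replicate 1, 52.9% were found in replicate 2, and 46.9% the other way. For H3K4me3 these shares were 61.2% and 83.5%, so the lowest H3K4me3 library lay above the highest H3K4me1 library, by less than the 2 H3K4me3 libraries differed from each other. The difference was −22.5 percentage points (pooled SD 11.5). The 2 shares of a mark come from the same overlap, so the pair of replicates is the unit of a test. Over the 3 castes the difference between pairs was −16.1 points (SD 6.35, n = 3; exact permutation p = 0.25, two-sided, the smallest possible). Of all stretches called in either replicate, 33.0% were called in both for H3K4me1 and 54.3% for H3K4me3. Where both replicates had a peak they placed it precisely, with summits a median of 35 bp apart for H3K4me1 and 19 bp apart for H3K4me3. Merged regions were wider than single peaks and had a median of 328 bp for H3K4me1 and 488 bp for H3K4me3. Only 32 H3K4me1 regions (0.492%) exceeded 1000 bp, against 942 H3K4me3 regions (17.8%). In sum H3K4me1 covered 2.37 Mb and H3K4me3 3.51 Mb of the 221 Mb of placed sequence.

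Of the 5 widest H3K4me3 regions, 2 lay at genes with a name in the table. A region of 3709 bp at chr9:8552089-8555797 reached into brp, the fly homologue of which builds the active zone where neurons release transmitter, with folds of 3.35 and 3.50 in the 2 replicates. A region of 3571 bp at chr2:4678269-4681839 lay over 18-w, a Toll-family receptor gene, with folds of 7.52 and 6.66. The widest of all, 4127 bp at chr10:9764461-9768587, overlapped LOC100577603, which has no name in the gene table. The widest H3K4me1 region was 1780 bp long, at chr13:3522425-3524204 in LOC410414, with folds of 2.09 and 2.56. The widest regions were not the strongest, although over all H3K4me3 regions the median width rose with fold, from 393 bp under a fold of 3 to 672 bp at 10 or more. The highest fold, 26.2 and 25.8, was in a region of 540 bp in LOC409045 at chr7:12764910-12765449.

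H3K4me1 summits were frequent inside H3K4me3 regions and scarce in the margin of 200 bp around them. Of the 6507 summits, 826 (12.7%) were inside an H3K4me3 region, although these regions held 1.59% of the placed sequence, a ratio of 7.98. Directly outside, within 200 bp, there were 10 summits (0.154%), whereas this margin held 0.937% of the sequence, a ratio of 0.164. From 200 to 1000 bp the summits were about as frequent as the sequence, at 2.90% against 3.22%. The bands of 1000 to 5000 bp and 5000 to 20000 bp held 15.7% and 31.98% of summits and 13.1% and 29.2% of sequence. Beyond 20000 bp summits were again fewer than the sequence, at 36.6% against 51.9%. The margin was equally bare of other summits, with 0.127% of H3K27ac and 0.0585% of H3K27me3 summits, so the gap was not particular to H3K4me1.

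The median distance from an H3K4me1 summit to the nearest H3K4me3 region was 11932 bp. It was 6062 bp for the 19670 H3K27ac regions and 37577 bp for the 17105 H3K27me3 regions, so H3K4me1 took a place between the active and the silent mark. These distances depend on the H3K4me3 list. Measured between single libraries, the median was 5940 and 6012 bp to the peaks of H3K4me3 replicate 1 and 10464 and 10282 bp to those of replicate 2. The share of H3K4me1 summits within 1000 bp of H3K4me3 was 15.8% with regions of both replicates and 5.75% for the placed sequence. It was 34.2% when H3K4me3 replicate 1 alone stood for the mark and 21.9% with replicate 2 alone. In queen the share inside H3K4me3 regions was 13.6% (sequence 2.06%), near that of worker, and in drone it was 2.68% (sequence 1.17%). The recovered tags of the drone H3K4me3 lists were 5.21 M and 4.20 M, whereas by the study's mapped reads these libraries were not smaller than those of worker, and the part of depth in this value was not tested.

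**Figure D2:**
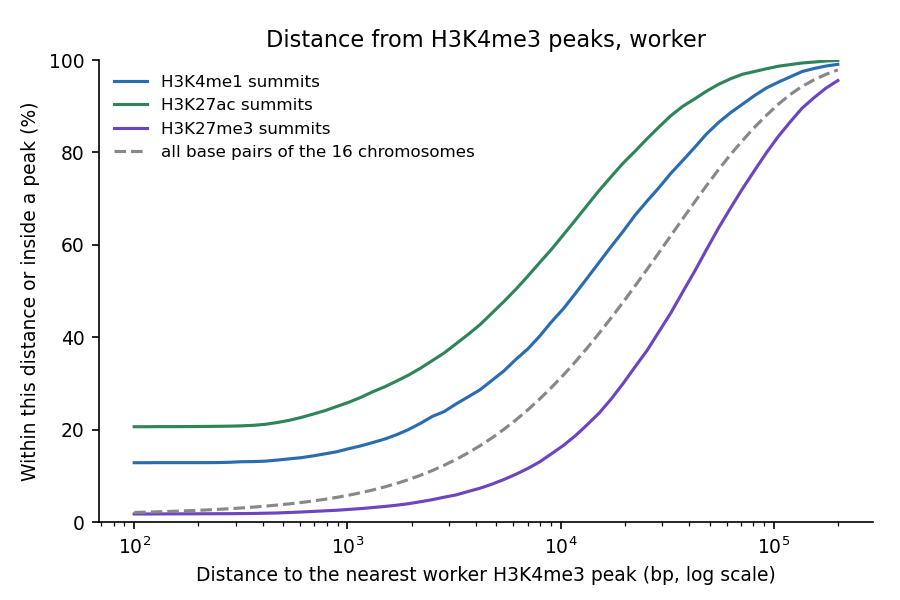
Cumulative percentage of worker H3K4me1, H3K27ac and H3K27me3 summits, and of all base pairs of the 16 chromosomes (dashed), that lie inside or within a given distance of a worker H3K4me3 region, with distance in bp on a log scale. The H3K4me1 curve starts at 12.8%, stays flat close to the peaks and runs between H3K27ac and the dashed line, whereas H3K27me3 runs below the line.

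The H3K4me3 regions that shared sequence with H3K4me1 were the weak ones. In all, 839 H3K4me1 regions (12.9% of that list) and 838 H3K4me3 regions (15.8%) overlapped. Overlapping summits were a median of 38 bp apart. H3K4me3 regions that overlapped H3K4me1 had a median fold of 2.86 (2.83 and 2.90 in the replicates) and a median width of 360.5 bp. Those apart from it had a median fold of 4.51 (4.57 and 4.44) and a median width of 525.5 bp. The same held in each library by itself, with median folds of 2.54 against 3.34 in H3K4me3 replicate 1 and 2.74 against 3.95 in replicate 2.

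Binned by strength, 29.2% of H3K4me3 regions with a fold under 3 overlapped H3K4me1, then 15.8% from 3 to 5, 6.14% from 5 to 10 and 3.74% at 10 or more. For H3K4me1 the order was the opposite. From the weakest to the strongest bin, 7.58%, 13.9%, 18.1% and 23.9% of H3K4me1 regions overlapped H3K4me3. The overlapping share thus rose with H3K4me1 fold and fell with H3K4me3 fold, and even in the strongest H3K4me1 bin 78 of 327 regions overlapped.

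The overlapping H3K4me3 regions also differed in their other marks and places. H3K27ac covered 63.2% of them and 87.3% of those apart from H3K4me1. H3K27me3 covered 20.05% of them and 3.75% of the others. Their midpoint lay at a gene end in 3.103% and 13.1%, and between genes in 12.9% and 5.37%. H3K4me3 was also called at the same place in queen for 63.8% and 92.1%, and in drone for 17.8% and 67.1%. These shares also rose with fold, in queen from 67.7% of H3K4me3 regions with a fold under 3 to 100% at 10 or more, and they were not compared at equal fold. The local background of the overlapping peaks, relative to the lowest of the list, was 1.38 against 1.80 in H3K4me3 replicate 1 and 1.42 against 2.05 in replicate 2, and its part in these differences was not tested.

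**Figure D3:**
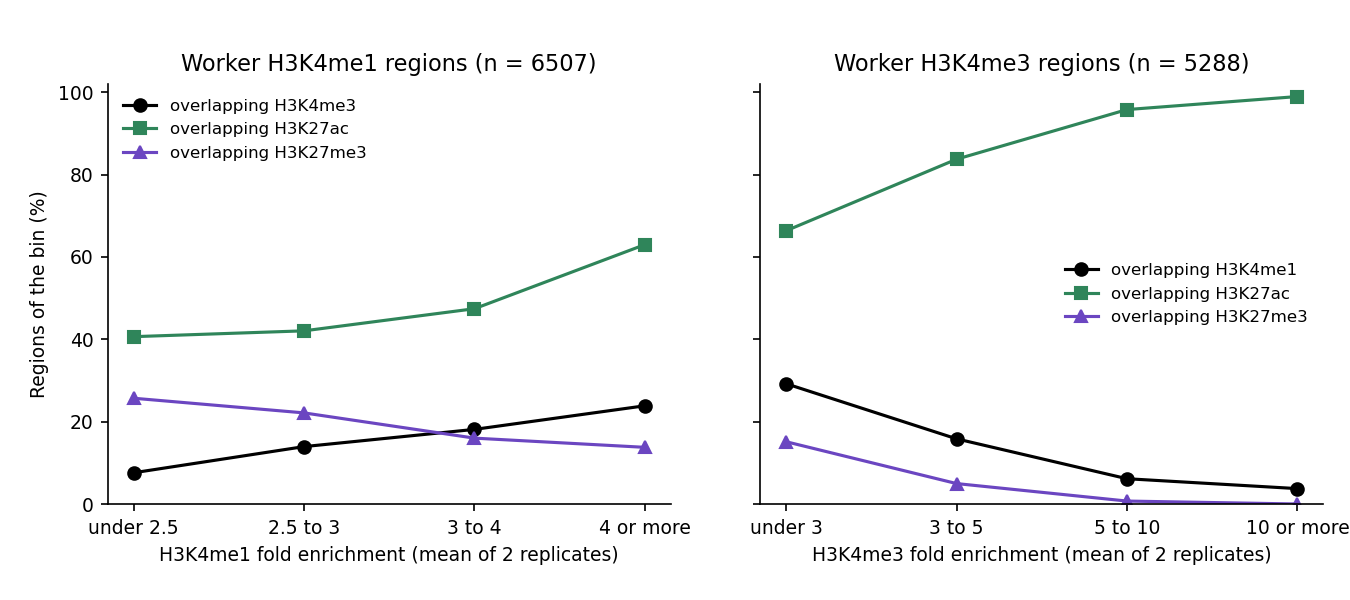
Percentage of worker H3K4me1 regions (left) and H3K4me3 regions (right) that overlapped the other H3K4 mark, H3K27ac or H3K27me3, by the fold enrichment of the region, taken as the mean of 2 replicates. With rising H3K4me3 fold the share with H3K27ac goes from 66.4% to 99.0% and the share with H3K4me1 falls from 29.2% to 3.74%, whereas both shares are highest in the strongest H3K4me1 bin.

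The 2 highest H3K4me1 folds of the worker brain were in regions that overlapped H3K4me3. They lay between genes at chr1:18805435-18805707 (folds of 8.08 and 8.79) and chr1:18806998-18807307 (8.49 and 7.35). Both carried H3K27me3 and no H3K27ac. Each of the 5 highest folds among overlapping H3K4me1 regions was outside annotated genes. The highest fold among H3K4me1 regions apart from H3K4me3 was 5.80 and 5.29, at chr6:16288290-16288614 in Eif4g, which encodes a scaffold of translation initiation.

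H3K4me3 stood close to gene ends and H3K4me1 deeper inside genes. The gene table gives the span of a gene but neither its strand nor its exons, so a gene end is a start or a stop of transcription, and introns could not be told from exons. Midpoints within 200 bp of a gene end made up 2.12% and 2.32% of H3K4me1 peaks and 9.23% and 10.55% of H3K4me3 peaks. This was a difference of −7.67 percentage points in worker (pooled SD 0.666). Over the 12 libraries of all castes it was −8.95 points (exact permutation p = 0.00926, adjusted 0.0123). Gene ends held 4.06% of the sequence, so H3K4me1 was below and H3K4me3 above that share. Midpoints further inside genes made up 82.5% and 81.4% against 81.2% and 81.1%, a difference of 0.770 points (pooled SD 0.546). This difference was 1.05 points in queen and went the other way in drone, at −0.992. Over 12 libraries it was 0.274 points and did not pass the test (exact permutation p = 0.491, adjusted 0.491). These shares depend on where a gene end stops. With gene ends of 1000 bp the worker difference was −31.6 points at gene ends and 24.7 points in gene bodies. Midpoints between genes made up 15.4% and 16.3% of H3K4me1 and 9.61% and 8.34% of H3K4me3 peaks, a difference of 6.90 points (pooled SD 0.774). Over 12 libraries this difference was 8.68 points (exact permutation p = 0.00926, adjusted 0.0123). Intergenic sequence was 21.9% of the total, so both marks were rarer there than the sequence.

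Finer bands within genes separated the marks most. Distance was taken to the nearest end of any gene, which can be that of an overlapping gene. Inside genes, between 200 and 1000 bp from such an end, lay 38.8% of H3K4me3 summits and 8.62% of H3K4me1 summits. This band held 8.84% of sequence. Between 1000 and 5000 bp the marks were alike, at 24.6% and 24.97%, both above the 18.8% of sequence. Between 5000 and 20000 bp lay 9.46% of H3K4me3 and 26.97% of H3K4me1 summits, against 21.2% of sequence, and deeper than that 7.03% and 21.9%, against 25.2%. Outside genes the H3K4me3 summits thinned out relative to the sequence, from a log2 ratio of −0.67 within 200 bp to −2.30 over 20000 bp away. H3K4me1 was at −1.53 within 200 bp, closest to its share from 1000 to 5000 bp (−0.12), and at −1.01 over 20000 bp away. In that last band lay 193 H3K4me1 summits (2.97%) and 64 H3K4me3 summits (1.21%), both below the 5.96% of sequence.

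**Figure D4:**
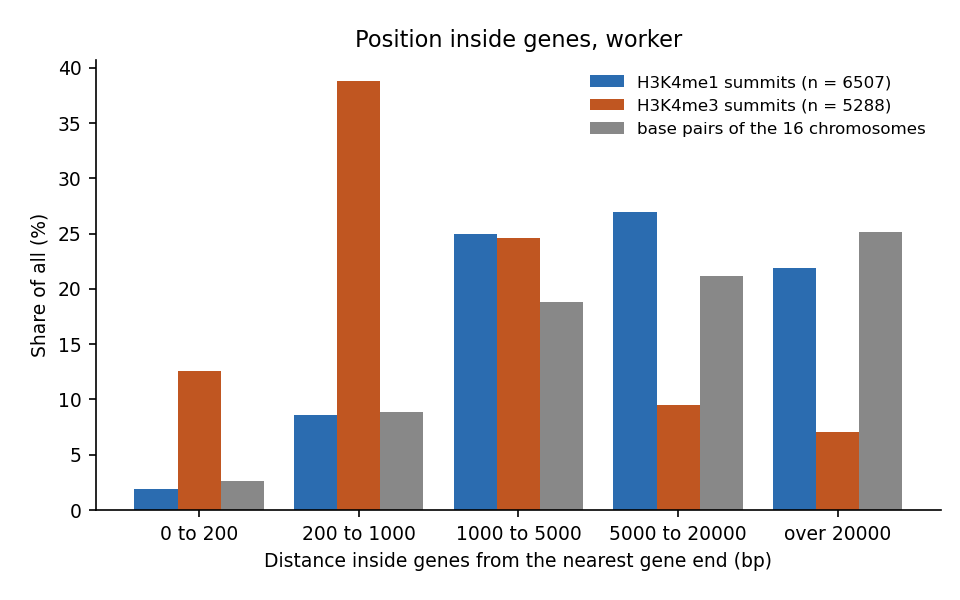
Percentage of worker H3K4me1 summits (blue), H3K4me3 summits (orange) and base pairs of the 16 chromosomes (grey) that lie inside a gene, by distance in bp from the nearest end of any gene. The highest H3K4me3 bar is 38.8% at 200 to 1000 bp and the highest H3K4me1 bar 26.97% at 5000 to 20000 bp.

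The marks differed in the company of the 2 lysine 27 marks. A worker H3K27ac region was overlapped by 34.7% and 37.97% of H3K4me1 peaks and by 66.1% and 75.6% of H3K4me3 peaks, a difference of −34.5 percentage points (pooled SD 5.05). A worker H3K27me3 region was overlapped by 19.9% and 21.2% of H3K4me1 peaks and by 11.2% and 8.89% of H3K4me3 peaks, a difference of 10.52 points (pooled SD 1.34). In both cases the worker groups did not overlap. Over 12 libraries the differences were −37.2 points for H3K27ac and 14.4 points for H3K27me3 (exact permutation p = 0.00926 for each, adjusted 0.0123). Among regions of both replicates, 36.4% of H3K4me1 and 11.7% of H3K4me3 overlapped neither.

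H3K4me1 regions fell into classes that differed in place. The 2735 with H3K27ac and without H3K27me3 had a median distance of 6089 bp to the nearest H3K4me3 region, and 8.41% of them were intergenic. The 1274 with H3K27me3 and without H3K27ac had a median distance of 21796 bp, and 32.3% were intergenic. The 2371 with neither were 18741 bp away, and 13.2% were intergenic. Strength hardly separated these classes, with median folds of 2.71, 2.47 and 2.67. H3K4me1 was also called at the same place in queen for 79.2%, 70.7% and 61.2% of them, and in drone for 56.0%, 36.9% and 20.6%. In H3K4me3 the classes differed in strength as well, with a median fold of 4.64 in the 4333 regions with H3K27ac alone, 2.51 in the 252 with H3K27me3 alone and 2.86 in the 620 with neither.

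Of the 12255 genes on placed chromosomes, 20.1% held an H3K4me1 region and 29.8% an H3K4me3 region. By class, 836 genes (6.82%) had H3K4me1 only, 2023 (16.5%) had H3K4me3 only, 1623 (13.2%) had both and 7773 (63.4%) had neither. A gene was counted where any base of its span was in a region, and 43.2% of genes overlap another gene, so neighbours can share a region. Without a call in both replicates a gene may still have had a peak in 1 library. Among the 836 genes with H3K4me1 only, 407 (48.7%) had no H3K4me3 peak in either library, and among the 2023 with H3K4me3 only, 1407 (69.6%) had no H3K4me1 peak in either. The class with H3K4me1 only was the least firm. It counted 1436 and 1339 genes when H3K4me1 rested on replicate 2 or replicate 1 alone, and 712 and 481 when H3K4me3 did.

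Genes with both marks were long. Their median length was 28342 bp, against 8018 bp with H3K4me1 only, 5204 bp with H3K4me3 only and 2631 bp with neither. Of the 794 genes of 50000 bp or more, 72.9% had both marks, and of the 1119 genes under 1000 bp, 0.447% did. H3K4me3 only was the more frequent single-mark class in short genes, with 242 genes against 49 with H3K4me1 only from 1000 to 2000 bp, and the classes were about even from 50000 bp, with 80 and 78. The lengths stand beside the classes because a longer gene holds more sequence in which a peak can lie.

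**Figure D5:**
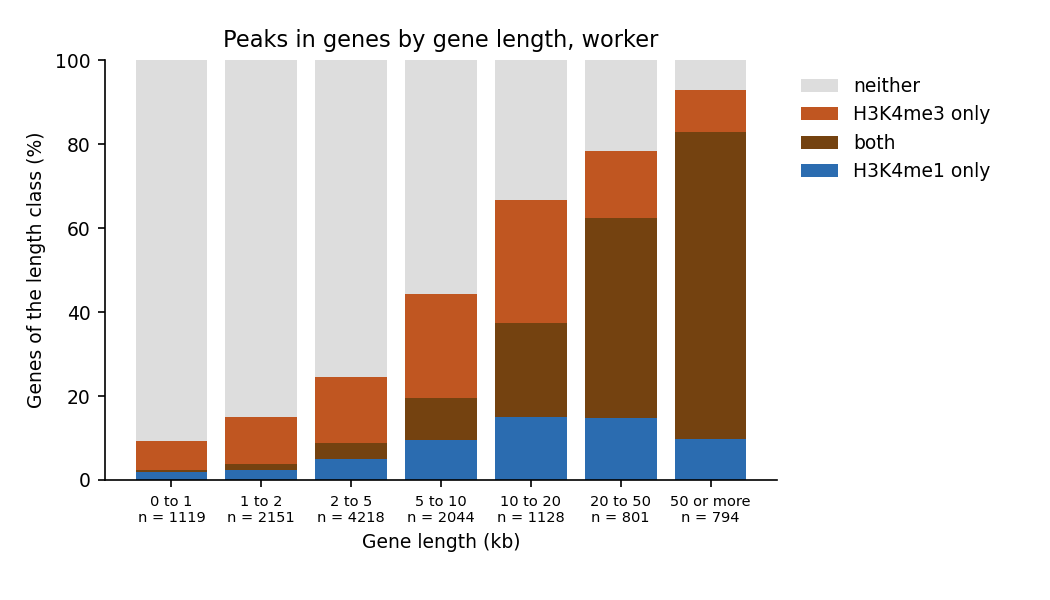
Percentage of genes with worker H3K4me1 regions only, both marks, H3K4me3 regions only or neither, by gene length in kb, with the number of genes of each length class under the bars. Genes with both marks go from 0.447% of genes under 1 kb to 72.9% of genes of 50 kb or more.

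Genes with H3K4me1 only carried H3K27ac less often, and H3K27me3 more often, than the other marked genes. H3K27ac was present in 54.1% of them, in 93.0% of genes with H3K4me3 only, in 92.9% of genes with both and in 16.4% of genes with neither. H3K27me3 was present in 36.6%, 5.44%, 27.1% and 8.47%. Long non-coding RNA genes, which make no protein, were 33.6% (281 genes), 7.22%, 8.26% and 16.3%. These contrasts held among genes of like length. From 2000 to 5000 bp, H3K27ac was present in 49.3% of 207 genes with H3K4me1 only and in 91.9% of 656 with H3K4me3 only, and H3K27me3 in 27.1% and 1.83%. From 20000 to 50000 bp H3K27ac was present in 52.5% of 118 and 96.1% of 128 genes, and H3K27me3 in 53.4% and 17.2%.

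Where a gene held a summit of each mark, they took different places. Among 1571 such genes the H3K4me1 summits lay further from the nearer gene end than the H3K4me3 summits in 1188 (75.6%) and closer to it in 380. The median distance from the nearer end was 6771 bp for H3K4me1 and 1830 bp for H3K4me3. Relative to gene length the medians were 0.265 for H3K4me1 and 0.124 for H3K4me3. Neither mark was set against positions drawn at random within these genes. The contrast is therefore one between the marks, and whether H3K4me1 lay deeper than random positions was not tested. In 708 of the 1623 genes with both marks (43.6%) some of the regions overlapped, and in 915 none did.

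The share of genes in the same class in the other castes differed by class. Of the worker genes with both marks, 91.1% were in this class in queen and 66.4% in drone. Of the genes with H3K4me3 only, 71.5% and 61.3% were in the same class, and 24.7% and 17.8% had both marks there. Of the genes with H3K4me1 only, 57.2% and 55.7% were in the same class. A further 27.5% had both marks in queen, and 39.7% had neither in drone. Queen and drone H3K4me1 lists held more peaks than those of worker (18943 and 21597 in drone), and drone H3K4me3 lists held fewer. The part of depth in these shares was not tested.

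All 9 listed synaptic and neuronal genes had H3K4me3, against 29.8% of all genes. They are long (median 127907 bp), and of all genes of 50000 bp or more, which 7 of the 9 are, 83.0% had H3K4me3. In this list 6 had both marks and 3 had H3K4me3 only. Nrx-1, a neurexin that joins the sides of a synapse, spans 337998 bp at chr5:2349284-2687281 and held 12 H3K4me1 regions (best folds 3.54 and 3.30) and 2 H3K4me3 regions (5.12 and 5.21). Camkii, a calcium-dependent kinase of synapses, held 7 H3K4me1 regions (3.54 and 3.13) and 2 H3K4me3 regions (4.67 and 4.41). Syx1A, which takes part in vesicle fusion, held 3 (2.58 and 3.27) and 1 (7.93 and 7.92). H3K4me3 only was called in both replicates at Syt1, the calcium sensor of vesicle release (4.36 and 4.85), at NLG-3, a neuroligin (4.23 and 4.03), and at brp. Syt1 had no H3K4me1 peak in either library, brp had 1 library with a peak, and at NLG-3 both libraries had peaks that did not overlap. H3K27ac was present at all 9 genes and H3K27me3 at 1, NLG-3. Among all genes, H3K27ac was present in 93.0% of those with H3K4me3 only and 92.9% of those with both marks. H3K27me3 was present in 5.44% and 27.1% of these classes.

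The 2 listed voltage-gated channel genes, both longer than 50000 bp, had H3K4me3. So did 83.0% of all genes of 50000 bp or more, and 7.18% of these had neither mark. Para, the sodium channel that carries the action potential, had 3 H3K4me3 regions with 3614 bp in all (best folds 4.79 and 5.05), the most of any named gene with H3K4me3 only. Each H3K4me1 library had a peak in Para, but these did not overlap. Cac, a calcium channel of the synapse, had 1 H3K4me3 region (4.28 and 4.10) and 3 H3K4me1 regions (3.63 and 3.33). The 2 glial genes, 3384 and 20235 bp long, had H3K4me3 as well. Of all genes, 19.5% from 2000 to 5000 bp and 63.5% from 20000 to 50000 bp had it. Eaat-2, a glutamate transporter, had both marks (H3K4me1 2.57 and 2.86, H3K4me3 2.77 and 2.96), and GlnS, glutamine synthetase, had H3K4me3 only (3.92 and 3.27).

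Of the 27 neurotransmitter receptor genes, 12 had both marks, 7 had H3K4me3 only, 4 had H3K4me1 only and 4 had neither. Their median length was 43374 bp, and 13 were of 50000 bp or more. Both marks were in 44.4% of the list. Of all genes, 47.6% from 20000 to 50000 bp and 72.9% of 50000 bp or more had both. The nicotinic acetylcholine receptor subunit genes nAChRa4 (13 H3K4me1 and 4 H3K4me3 regions) and nAChRa6 (12 and 5) had the most H3K4me1 sequence of all named genes with both marks, 4574 and 4303 bp. The best H3K4me1 region of nAChRa4, at chr7:7656497-7656824 within the gene, had folds of 5.03 and 5.07, among the 5 highest of all regions apart from H3K4me3. Glurb, a glutamate receptor gene, also had 12 H3K4me1 regions (best folds 3.13 and 3.72) and 5 H3K4me3 regions (4.33 and 4.10).

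The 4 receptor genes with H3K4me1 only were 5-ht7, Grd, nAChRb2 and nAChRa9. The serotonin receptor gene 5-ht7, at chr6:633583-1032488, had 5 H3K4me1 regions (best folds 3.63 and 4.73) in 398906 bp, with neither lysine 27 mark, and was in the same class in queen and drone. Grd, related in flies to GABA receptors, had 2 (3.54 and 4.31). H3K4me3 peaks that did not overlap were called in both libraries at Grd, in 1 library at 5-ht7 and nAChRb2 and in none at nAChRa9. Among the amine receptors, Dop1 had both marks (H3K4me1 3.66 and 3.21, H3K4me3 3.16 and 3.06) and DopR2 had H3K4me3 only (2.48 and 3.38), with H3K4me1 peaks in each library that did not overlap. The region of the tyramine receptor gene TyrR with the highest H3K4me3 fold (7.83 and 8.94) lies also in Ks-1, a gene within its span, and cannot be assigned to either. H3K4me3 alone marked nAChRb1 (5.45 and 4.90) and LCCH3, a GABA receptor subunit (6.61 and 4.86), with no H3K4me1 peak in either library.

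All 24 developmental transcription factor genes carried a lysine 27 mark, H3K27ac at 15 and H3K27me3 at 13, with both at otd2, Foxp, Dll and Dsx. Among all genes, by H3K4 class, H3K27ac was present in 16.4% to 93.0% and H3K27me3 in 5.44% to 36.6%. Long genes carried them often, and 11 of the 24 are of 50000 bp or more. Of all genes of that length with both H3K4 marks, 93.8% had H3K27ac and 51.6% had H3K27me3. Of the 24, with a median length of 37809 bp, 10 had both H3K4 marks, 5 had H3K4me3 only, 6 had H3K4me1 only and 3 had neither. Among all genes with H3K4me1 only (6.82% of genes), 24.8% carried H3K27me3 and no H3K27ac. H3K27me3, with or without H3K27ac, was present in 30.1% of this class from 5000 to 10000 bp. From 50000 bp it was present in 69.2%. Of the 6 listed genes with H3K4me1 only, 5 carried H3K27me3 and no H3K27ac. These were the Hox genes Antp and Ubx, which set segment identity, and cad, Msx and Twi, which pattern the embryo in flies. Antp had 11 H3K4me1 regions (best folds 3.23 and 3.80), Ubx 6 (4.05 and 3.62), cad 2 (4.12 and 3.55), Msx 2 (3.11 and 3.46) and Twi 1 (4.04 and 3.55). Ubx had no H3K4me3 peak in either library, Antp, cad and Twi had peaks in 1 library, and Msx had peaks in both that did not overlap. The remaining gene, Mblk-1, known from Kenyon cells of the mushroom bodies, had 1 weak region (2.07 and 1.63) and H3K27ac in place of H3K27me3.

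The 5 genes with H3K4me3 only, otd2, Kr-h1, Br-c, Foxp and Dll, all carried H3K27ac, as did 93.0% of all genes in this class. Of the 10 transcription factor genes with both marks 9 carried H3K27ac, near the 92.9% of all genes with both. They included the nuclear receptors of the ecdysone pathway, by which insects read out the moulting hormone. Ecr had 5 H3K4me1 regions (best folds 2.46 and 2.74) and 1 H3K4me3 region of high fold (7.20 and 6.30). Its partner Usp had 5 (3.30 and 3.98) and 3 (8.29 and 9.87). The ecdysone-responsive genes E74 and E75 had 4 and 5 H3K4me1 regions, and E74 had the most H3K4me3 sequence of all named genes with both marks (4220 bp, best folds 6.25 and 5.63). Mad, a transducer of BMP signals, had 10 H3K4me1 regions (3.52 and 3.65) and 2 H3K4me3 regions (9.20 and 8.35) in 409447 bp. Dl (Dorsal), an NF-kappa-B factor, had the highest H3K4me3 folds of the list, 20.1 and 19.3, beside 2 H3K4me1 regions (3.64 and 3.39).

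Chromosome 16, on which Antp and Ubx lie, had 44.1 H3K4me1 regions per Mb, the highest of the 16 chromosomes, and 2.01 H3K4me1 regions for every H3K4me3 region, also the highest. On chromosome 10 this ratio was 0.893, and it was above 1 on all others. The gene with the most H3K4me1 regions of all, LOC102656349 with 50, is at chr16:3344509-3592475, next to Ubx and Antp. The stretch from its start to the end of Antp, chr16:3344509-4037081, was singled out after these values were seen.

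In these 0.693 Mb there were 77 H3K4me1 regions (111 per Mb, against 37.0 in the rest of the chromosome) and 2 H3K4me3 regions (2.89 per Mb, against 24.0). All 77 overlapped H3K27me3, which had 390 regions in the stretch, and no H3K27ac region was found there. LOC102656349 held 50 of the 77, whereas Antp held 11 and Ubx 6. By library there were 107 and 172 peaks of H3K4me1, 15 and 5 of H3K4me3, 457 and 410 of H3K27me3 and 0 and 2 of H3K27ac. The H3K4me1 peaks were low, with median folds of 2.18 and 2.01. The other castes had the same order, with 314 and 272 H3K4me1 and 12 and 18 H3K4me3 peaks in queen, and 412 and 476 against 4 and 0 in drone.

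Genes of other tissues were mostly without regions, and these genes are short. Neither mark was called in 84.9% of all genes from 1000 to 2000 bp and in 75.6% of those from 2000 to 5000 bp. Of 35 chemosensory receptor genes, which act in the antenna and mouthparts, 30 had neither mark (85.7%), 4 had H3K4me1 only and 1 had both, at a median length of 2144 bp. The odorant receptor gene Or35 had both (H3K4me1 2.32 and 1.99, H3K4me3 3.14 and 3.42). Of 27 cuticular protein genes, with a median of 2264 bp, 23 had neither (85.2%). Of 13 markers of fat body, hypopharyngeal gland, muscle and eye, 10 had neither (76.9%). The exceptions were TpnI, a troponin of muscle, and Uvop, an opsin of the eye, with H3K4me1 only, and TpnT, another troponin, with both (H3K4me1 3.38 and 3.97, H3K4me3 2.32 and 2.68). Vg and Mrjp1 to Mrjp3, which encode vitellogenin and royal jelly proteins, had none.

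Ribosomal protein genes, used by all cells, had neither mark at the 7 of 7 found by symbol. They are 681 to 1936 bp long. Of all genes, 90.7% under 1000 bp and 84.9% from 1000 to 2000 bp had neither mark, so the count is near that of any genes this short. H3K27ac was present at 2 of the 7 ribosomal genes, Rps14 and RpL35, each of which had an H3K4me3 peak in 1 library. Of 8 genes of mitochondrial respiration, 6 had neither mark and 2 had both, at a median length of 1961.5 bp. These were ATP5G2 (H3K4me1 3.42 and 3.57, H3K4me3 9.55 and 7.62) and Cox6b1 (1.93 and 2.01, and 7.55 and 7.52). No H3K4me3 call in these genes says only that no peak of both replicates reached into the span of the gene.

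Among all genes with a name in the table, 37 had H3K4me1 only, 61 had H3K4me3 only and 72 had both, of 388. Over all 12255 genes these classes held 6.82%, 16.5% and 13.2%. The highest H3K4me3 folds without H3K4me1 were at MARCH6, a ubiquitin ligase gene (16.8 and 15.9), DHRS4, a dehydrogenase gene (14.8 and 17.5), Ing3, which binds H3K4me3 as part of an acetyltransferase complex (16.5 and 15.2), Metrn (15.2 and 15.2), and aub, an Argonaute gene of the piRNA pathway (15.2 and 13.7). All 5 carried H3K27ac, are 3289 to 6625 bp long and had no H3K4me1 peak in either library. Of all genes with H3K4me3 only, 93.0% carried H3K27ac and 69.6% had no H3K4me1 peak in either library. The highest H3K4me1 folds without H3K4me3 were at Glob1, a globin gene (3.92 and 4.66), at 5-ht7, Grd and Ubx, and at Per, the period gene of the circadian clock (3.63 and 4.73). H3K4me3 peaks were called in 1 library at Glob1, 5-ht7 and Per and, apart from each other, in both at Grd, and in none at Ubx. Eif4g led the genes with both, with 2 H3K4me1 regions (5.80 and 5.29) and 6 H3K4me3 regions (11.1 and 13.1). These lists rank values that also define them and are given as a description.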

How the data were processed

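The authors mapped reads with BWA (version 0.7.17) to Amel_HAv3.1 and called peaks per library with MACS2 (version 2.2.7.1, genome size 270000000 bp). An input library was sequenced for each caste, but the control given to the peak caller and its other settings were not given in the sources used here. The deposited lists hold peak positions, summits, the fold (a ratio of summit to local background), and the −log10 of p- and q-values. No fold was compared between libraries by a test.

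Peaks overlapping the other replicate by at least 1 bp were merged, after the study's rule. The summit with the highest −log10 p was kept. Region folds are means of the replicates' best peaks. ChIP tags were recovered from fold and p, taking the shortest peak as fragment length. Spans of 12255 RefSeq genes came from a table of the same assembly, without strand, exons or product names, so genes were chosen by symbol. Named examples had the most covered sequence or the highest folds of their class. The last gene or peak set the length of a chromosome. Members and gene lists were chosen with earlier results of these data known. Several planned markers had no symbol in the table and were not used here.

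Exact permutation tests over libraries, two-sided, were adjusted by Benjamini-Hochberg over 8 measures. For replicate agreement the pair was made the unit after the data were seen. Regions, distances and gene classes have no test. Functions were tested on simulated data. Python 3.11.15, numpy 2.4.6, scipy 1.17.1, pandas 2.3.3 and matplotlib 3.10.9 were used. Alternatives covered thresholds, overlap rules, equal peak numbers, scaffolds, positions, gene spans, the replicate block and leaving out each library.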

Additional observations from a re-analysis of the deposited data

How the results depend on the processing

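Of 76 alternatives to the tested results, 75 kept direction and side of the threshold (which 2 libraries against 2 cannot pass) and 1 reversed. Alternatives with the replicate block, and the 1 with the pair of replicates as unit, leave the value unchanged. They are counted among the 75 but could only be kept. Of 51 for results without a test, 36 stayed within the spread between replicates or, for counts, within 1.5 times, and 15 did not. Of the 75, 11 moved by over 1.5 times. With a fold above 3 the log2 width ratio was −0.92 and replicate agreement −41.1 points. At a minimum −log10 q of 5 the log2 ratio of numbers was 0.35. Gene ends of 1000 bp gave −31.6 points at gene ends and 24.7 in gene bodies. The small gene body difference was 1.30 at that minimum, 1.21 with equal numbers, 2.09 with a fold above 3, 2.42 by summit, and 0.225 and 1.31 without H3K4me1 replicates 1 and 2 in turn. With only peaks of a fold above 3, the log2 ratio of peak numbers turned to −0.21. That alternative gave 422 genes with H3K4me1 only and 601 with both marks, and moved the log2 length ratio of genes with H3K4me1 only to those with H3K4me3 only from 0.62 to 0.92. With the 6533 strongest peaks of every library there were 491 genes with H3K4me1 only and 1072 with both. With peaks of either replicate, 25.4% of H3K4me1 summits lay within 1000 bp of H3K4me3, 2898 genes had both marks and the log2 length ratio was 0.47. With a limit of 5000 bp in place of 1000, 31.4% of summits were near H3K4me3. The cause of these shifts was not tested, beyond the wider limit or fewer peaks that the alternatives impose.

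Leaving out 1 library at a time gave log2 ratios of −0.43 to −0.40 for width and 0.60 to 1.00 for number. The differences ranged from −8.33 to −7.01 points at gene ends, 0.225 to 1.31 in gene bodies, 6.27 to 7.53 between genes, −39.3 to −29.7 for H3K27ac and 9.35 to 11.7 for H3K27me3. H3K4me1 summits near H3K4me3 were 11.01% to 34.2%, genes with H3K4me1 only 481 to 1436, with H3K4me3 only 1602 to 2492 and with both 1747 to 2044, and the log2 length ratio was 0.41 to 0.75. The share found in the other replicate has no such value, since it needs both libraries. The replicate numbers of the 2 marks are not stated to mark a shared batch, and the deviations of same-numbered libraries were unrelated (r = −0.0017 across 12255 genes, which are not independent). With the replicate block every exact p was 0.5, the smallest that 2 pairs allow, and the log2 ratio of numbers was 0.80 as without it. Only 2 libraries per mark and the depth of calling limit these results.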
